A study of Mus musculus with 9 samples.

Results

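The arrays were read for 35 genes of liver macrophages, antigen presentation and inflammation, chosen by gene name. All 35 were on the array, with 53 of its 56605 non-control probes and among 37074 gene names. They fall into 7 Kupffer cell and macrophage markers, 3 chains of complement C1q, 5 lysosomal or signalling proteins of myeloid cells, 4 class II and 4 class I genes of the major histocompatibility complex (MHC) pathway, 6 chemokines, 3 cytokines and 3 markers of lipid-associated macrophages.

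Livers came from male C57BL/6N mice that had received, by tail vein, an adeno-associated virus (AAV) directed to hepatocytes. AAV-V mice received the empty vector and normal diet, AAV-GP73 mice the vector with mouse GP73 and normal diet, and AAV-V HFD mice the empty vector and a high fat diet (HFD), with 3 arrays in each group. All 3 groups thus carried AAV. The vector was designed for expression in hepatocytes, whereas most of the genes described here are known from macrophages and other cells of the liver. The labels give an age of 12 months where the study counts 12 months from injection, the length of HFD feeding is given as 12 months in its results and 6 months in its methods, and nothing states if RNA was pooled over mice, so that p-values measure the spread between these samples, which may be technical. GP73 is encoded by Golm1, whose single probe was well above background on 0 of 9 arrays, so that the labels could not be checked by this gene. The 6 hepatocyte markers examined, albumin (Alb) among them, were well above background on every array.

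Kupffer cells are the resident macrophages of the liver sinusoids, where they clear particles from the blood and carry scavenger and complement receptors. MHC class I molecules, a heavy chain paired with beta-2-microglobulin, show peptides from inside any nucleated cell to CD8+ T cells, whereas class II molecules show peptides taken up by macrophages, dendritic cells and B cells to CD4+ T cells. In fatty liver disease, monocyte-derived macrophages that carry Trem2, Spp1 and Lgals3 gather around lipid-laden hepatocytes, and chemokines such as Ccl2 attract them.

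The class I results turn on a few probe sequences. H2-K1, a class I heavy chain, was measured by a pair of 60-base probes that gave different answers. The brighter, A_55_P2049647 (mm9, chr17:34133984-34134043, minus strand), shared a run of 29 bases, shown in capitals, with the brightest probes named for the class I genes H2-T23 (A_51_P237754) and H2-L (A_55_P2501876, chr17:35403191-35403250, plus strand). The other, A_51_P198434 (chr17:34133055-34133114, minus strand), and the H2-D1 probe A_65_P19395 (chr17:35403886-35403945, plus strand) shared no run of 15 or more bases with any probe of another gene name. Stretches of 30 bases are given from 5′ to 3′, around the shared run or from the first base of the probe.
H2-K1, A_55_P2049647, bases 14 to 43: cTGGAGCTGTGGTGGCTTTTGTGATGAAGA
H2-T23, A_51_P237754, bases 8 to 37: tTGGAGCTGTGGTGGCTTTTGTGATGAAGA
H2-L, A_55_P2501876, bases 14 to 43: tTGGAGCTGTGGTGGCTTTTGTGATGAAGA
H2-K1, A_51_P198434, bases 1 to 30: tgaatgtaaccttgattgttatcatcttga
H2-D1, A_65_P19395, bases 1 to 30: cagttctctttacacaacattgtctgatgt
Among the brightest probes of the 17 genes that could be tested, A_55_P2049647 was the only one that shared 20 or more bases with a probe of another gene name on the array. Lyz1 and Lyz2 encode near-identical lysozymes, and the longest run shared by their brightest probes was 8 bases. Probes were compared only with probes, so that whether each also reads the RNA of the other gene was not tested.

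The promoters of the class I genes hold letters that interferon and NF-kB factors are known to bind, and those of H2-K1, H2-D1, beta-2-microglobulin (B2m) and the class II gene H2-Eb1 are shown because both chains of class I and a class II chain were tested on these arrays. RefSeq promoter sequences (GRCm38.p6) were at hand for 27 of the 35 genes, and the 250 bases before each start site were searched on both strands. Capitals mark GAAANNGAA, GAANNGAAA, GGGGATTCC and CCAAT, or their reverse complements, which were chosen with these promoters in view.
H2-K1, chr17:34000348-34000597, minus strand: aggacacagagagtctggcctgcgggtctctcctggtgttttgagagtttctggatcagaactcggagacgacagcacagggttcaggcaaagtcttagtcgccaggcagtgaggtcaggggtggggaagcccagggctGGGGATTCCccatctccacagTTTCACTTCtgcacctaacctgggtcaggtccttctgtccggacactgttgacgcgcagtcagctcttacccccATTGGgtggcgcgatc
H2-D1, chr17:35262844-35263093, plus strand: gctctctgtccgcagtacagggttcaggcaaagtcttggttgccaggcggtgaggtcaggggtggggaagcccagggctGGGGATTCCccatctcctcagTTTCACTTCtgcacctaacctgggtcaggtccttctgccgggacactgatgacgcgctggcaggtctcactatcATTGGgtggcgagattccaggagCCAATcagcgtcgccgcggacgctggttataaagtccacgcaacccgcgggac
B2m, chr2:122147437-122147686, plus strand: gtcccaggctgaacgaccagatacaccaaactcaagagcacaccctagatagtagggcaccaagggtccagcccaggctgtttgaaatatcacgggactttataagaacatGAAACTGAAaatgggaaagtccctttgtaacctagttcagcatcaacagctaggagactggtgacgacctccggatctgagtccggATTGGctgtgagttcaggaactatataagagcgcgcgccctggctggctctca
H2-Eb1, chr17:34305617-34305866, plus strand: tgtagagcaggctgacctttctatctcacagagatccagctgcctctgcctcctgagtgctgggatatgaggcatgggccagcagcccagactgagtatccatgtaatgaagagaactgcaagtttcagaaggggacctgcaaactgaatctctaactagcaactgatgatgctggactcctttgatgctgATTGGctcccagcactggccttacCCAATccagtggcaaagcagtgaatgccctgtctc
The NF-kB type motif GGGGATTCC stood in the H2-K1 and H2-D1 windows, starting 111 and 171 bases before the start site, and in 0.218% of the 27025 promoters searched. GAANNGAAA, a form of the interferon response element, was found in H2-K1, H2-D1 and Ctss, and in 6.34% of all promoters. GAAANNGAA, another form, was found in 6 of the 27 genes, B2m, Ctss, Cxcl9 and Cxcl10 among them, and in 7.16% of all promoters. In Ctss the matches to both forms overlapped. CCAAT was found for 15 of the 27 genes, H2-Eb1 among them, and in 34.5% of all promoters. These are matches of letters, and no binding was measured.

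Detection set what could be compared. Signals are given as scaled log2 signals, that is, log2 processed signals after each array was shifted to a common 75th percentile, taken over probes that were detected throughout the 9 arrays. By the brightest probe of each gene, 4 of 35 genes (11.4%) were detected, meaning well above background, on each of the 3 AAV-V arrays, 17 (48.6%) on each AAV-GP73 array and 15 (42.9%) on each AAV-V HFD array, beside 7.18%, 14.6% and 12.5% of all gene names. On no array of the group were 71.4%, 31.4% and 34.3% of the 35 detected, beside 87.6%, 78.3% and 79.9% of all gene names. The 4 in AAV-V were Cd5l, a macrophage-secreted inhibitor of apoptosis, Lyz2, the lysozyme of myeloid cells, H2-K1 and B2m. The AAV-V arrays detected 4 to 7 of the 35 genes each, the AAV-GP73 arrays 17 to 23 and the AAV-V HFD arrays 17 to 21.

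**Figure D1:**
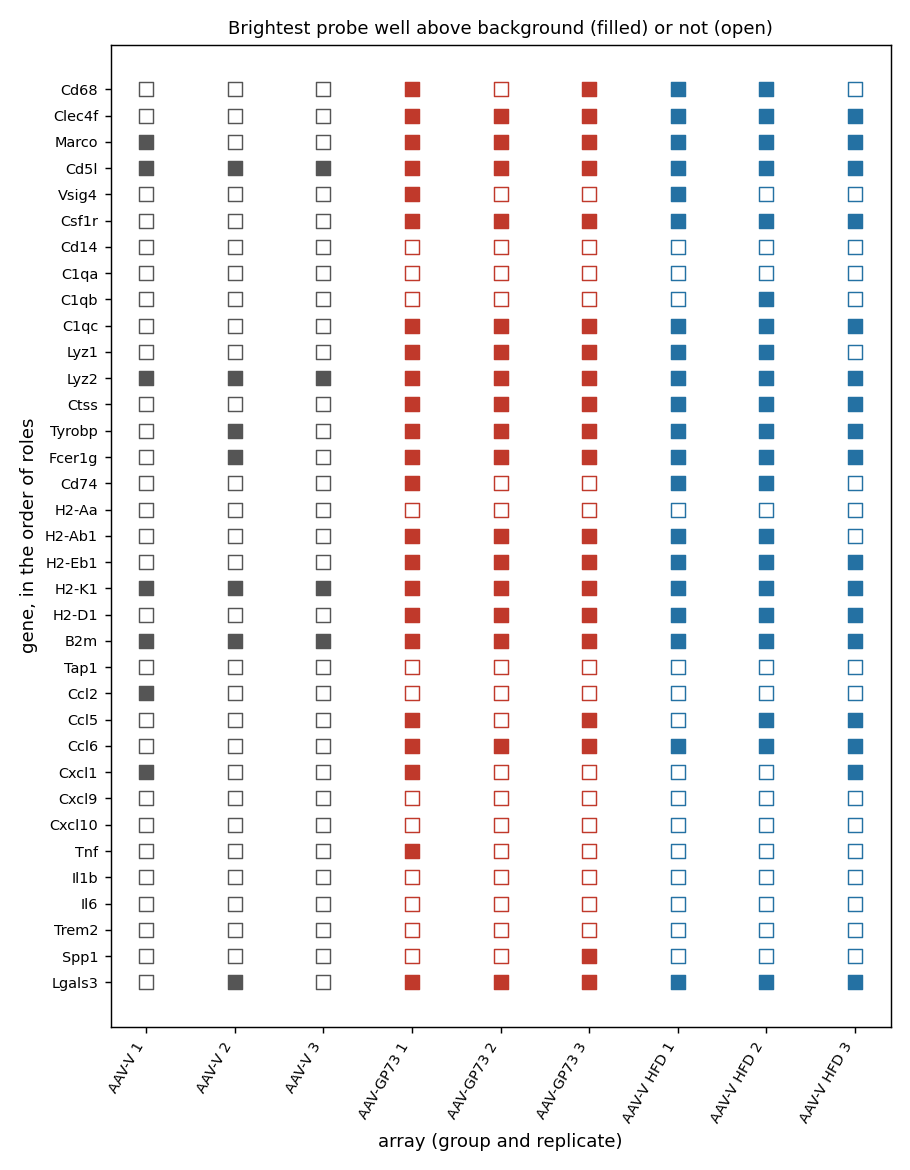
Each square is a gene (rows, in the order of roles) on an array (columns, by group and replicate), filled where the brightest probe was well above background and open where it was not. The AAV-V columns hold 4 to 7 filled squares and the other columns 17 to 23, and 9 rows have none.

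The same arrays differed over all genes. Between 10.2% and 10.7% of spots were well above background on AAV-V arrays, 16.0% to 18.4% on AAV-GP73 arrays and 13.8% to 16.7% on AAV-V HFD arrays. The median processed signal of the probes detected on all 9 arrays was 33.1 to 38.7, 104 to 128 and 76.3 to 124 in the same order, while the spike-in controls read 10.38 to 10.96, 10.43 to 10.50 and 10.51 to 10.85 on the log2 scale. After scaling, the lowest detected probe stood at 3.77 to 3.94 on AAV-V arrays, at 1.85 to 2.49 on AAV-GP73 arrays and at 2.04 to 2.81 on AAV-V HFD arrays. A scaled level near 3 could therefore be read in AAV-GP73 and AAV-V HFD livers but not in AAV-V livers, and the part of this difference in the detection counts was not tested. AAV-V HFD was the only group on its slide, the other two groups sharing a slide, and the effects of diet and of slide cannot be told apart.

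No probe of 9 genes was well above background on any array. These were Cd14, the co-receptor for lipopolysaccharide, C1qa, the class II alpha chain H2-Aa, the peptide transporter Tap1, the interferon-induced chemokines Cxcl9 and Cxcl10, the cytokines Il1b and Il6, and Trem2, the lipid receptor that marks macrophages of fatty liver. A further 9 were read on some arrays but on all arrays of no group. Cd68, a lysosomal glycoprotein of macrophages, and the T cell attractant Ccl5 were well above background on 0 of 3 AAV-V, 2 of 3 AAV-GP73 and 2 of 3 AAV-V HFD arrays. The invariant chain Cd74 was read on 0, 1 and 2 arrays of these groups, the complement receptor Vsig4 on 0, 1 and 1, and C1qb on 0, 0 and 1. The neutrophil attractant Cxcl1 was read on 1 array of each group, Tnf and osteopontin (Spp1) on 1 AAV-GP73 array each, and Ccl2 on 1 AAV-V array, replicate 1, which also held the highest Cxcl1 signal. Neither the 3 cytokines nor 5 of the 6 chemokines could be tested.

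The remaining 17 genes were tested within a limma fit of 5763 genes, with calls made at 2-fold or more and a Benjamini-Hochberg adjusted p under 0.05. In AAV-GP73 against AAV-V livers 6 of the 17 were higher and 0 lower, where 33.2% of all genes tested were higher and 19.4% lower. In AAV-V HFD against AAV-V livers 4 were higher and 0 lower, where 24.8% of all genes were higher and 18.2% lower. The 6 and 4 are 35.3% and 23.5% of the genes tested, near the background in both comparisons. Of the 17, 13 missed detection on at least 1 AAV-V array and so passed through the groups where they were brighter. On no AAV-V array were 9 detected, Clec4f, Ctss, Ccl6, H2-Eb1 and H2-D1 among them. Their p-values against AAV-V rest on signals below background and are given for the calls only. They belong to the fitted differences and not to the least folds printed beside them. The median fitted log2 fold change in AAV-GP73 was 0.77 over the 17 genes beside 0.60 over all genes, and in AAV-V HFD it was 0.66 beside 0.37.

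**Figure D2:**
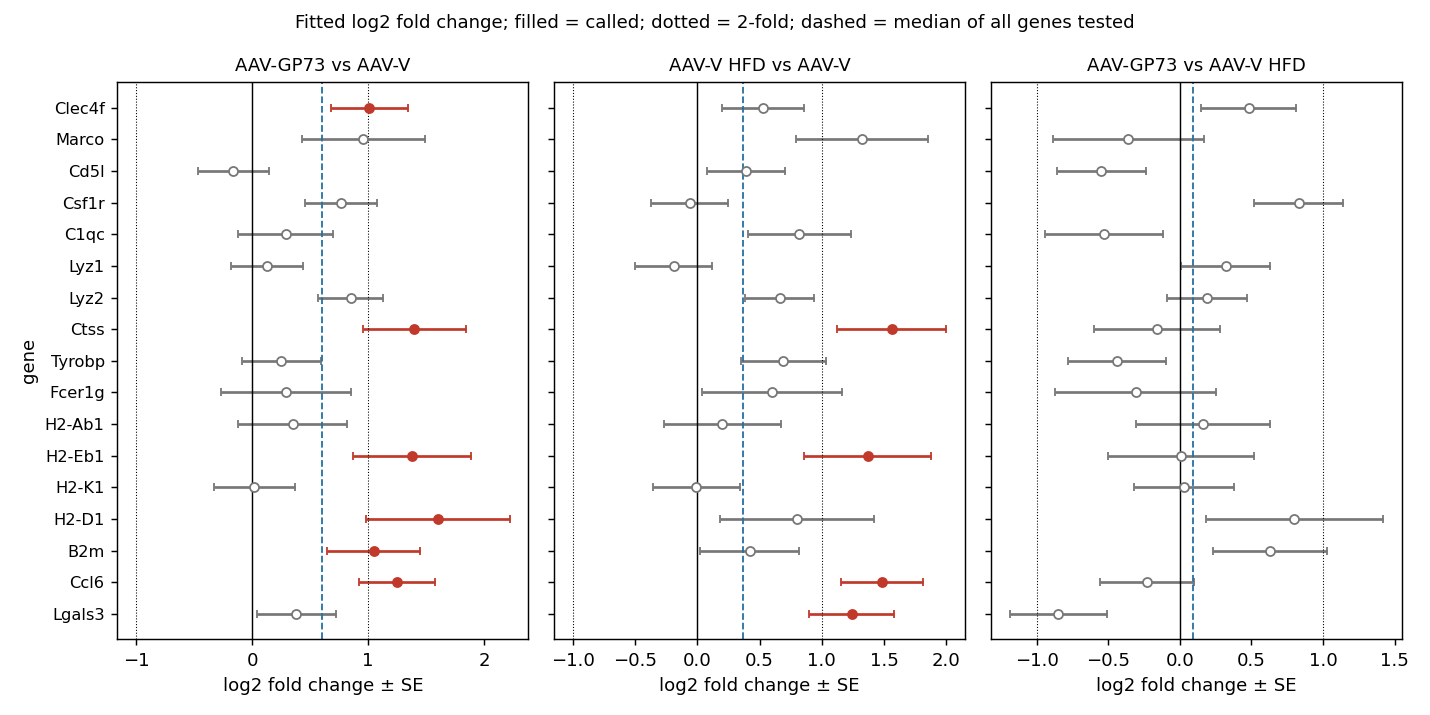
Fitted log2 fold change with its standard error (horizontal) of the 17 tested genes (vertical) in each comparison, filled where called, with the median of all genes tested as a dashed line. The 6 and 4 called genes lie to the right of both lines in the comparisons with AAV-V, though all but B2m and Lgals3 were detected on no AAV-V array and have no measured size, and 0 are called between AAV-GP73 and AAV-V HFD.

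Of the 7 Kupffer cell and macrophage markers 4 could be tested, and 1 of them, Clec4f, was called, in AAV-GP73 livers. Clec4f, the lectin by which mouse Kupffer cells are recognised, read 2.97, 3.15 and 2.47 on the AAV-V arrays, none of them well above background, 4.33, 4.01 and 3.26 on the AAV-GP73 arrays, and 3.09, 3.53 and 3.55 on the AAV-V HFD arrays. The AAV-GP73 signals lay above the AAV-V signals, and the AAV-V HFD signals overlapped both. The lowest AAV-GP73 signal, 3.26, is under the lowest level detectable on AAV-V arrays, 3.77 to 3.94, so that this order could not be read. Clec4f was higher in AAV-GP73 livers with an adjusted p of 0.0203, but since AAV-V gave only an upper limit, the measured rise was at least 1.01-fold. In AAV-V HFD livers it did not pass the test (adjusted p = 0.192).

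The scavenger receptor Marco averaged 3.83 ± 0.51 (SD, n = 3), 4.79 ± 0.29 and 5.15 ± 1.3 in AAV-V, AAV-GP73 and AAV-V HFD livers, with adjusted p of 0.133 and 0.0535 against AAV-V. Its AAV-V HFD arrays ranged from 3.65 to 5.99. Cd5l stayed between 5.55 and 6.88 on all 9 arrays, with log2 differences of -0.16 ± 0.31 and 0.39 ± 0.31 (SE). Csf1r, the receptor for macrophage colony-stimulating factor, was detected on no AAV-V array, and AAV-GP73 livers exceeded AAV-V by at least 1.24-fold (adjusted p = 0.0491), under the fold threshold. Against AAV-V HFD, the 3 AAV-GP73 values of Csf1r, 4.14, 4.25 and 4.14, lay above 3.00, 3.80 and 3.25, and this difference of 0.83 ± 0.31 (SE) did not pass (adjusted p = 0.203). C1qc, a chain of the complement-starting C1q complex, averaged 3.04 in AAV-GP73 livers and 3.57 in AAV-V HFD livers and was detected on no AAV-V array, with neither difference called. Bulk liver RNA does not tell fewer macrophages from less RNA per macrophage.

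Cathepsin S and the chemokine Ccl6 were higher in both groups. Ctss encodes the cysteine protease that trims the invariant chain from class II molecules. It read 1.70, 2.94 and 3.46 on AAV-V arrays, none detected, 4.33, 3.93 and 4.04 on AAV-GP73 arrays, and 4.12, 4.95 and 3.71 on AAV-V HFD arrays. The signals of both groups lay above those of AAV-V, but 3.71 is under the lowest level detectable on AAV-V arrays, 3.77 to 3.94. The rises were at least 1.18-fold in AAV-GP73 (adjusted p = 0.0165) and at least 1.32-fold in AAV-V HFD (adjusted p = 0.0118). Ccl6, a chemokine made by macrophages, read 3.77, 3.07 and 2.75 without detection in AAV-V, 4.84, 4.48 and 4.03 in AAV-GP73, and 4.52, 4.81 and 4.71 in AAV-V HFD livers. No array of either group overlapped those of AAV-V. The rises were at least 1.51-fold (adjusted p = 0.00597) and at least 1.76-fold (adjusted p = 0.00335), and between AAV-GP73 and AAV-V HFD the difference was -0.23 ± 0.33 (SE) on the log2 scale (adjusted p = 0.773).

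Among the other myeloid proteins, Lyz2 was detected on all 9 arrays and averaged 5.65 ± 0.31, 6.50 ± 0.08 and 6.31 ± 0.35 (SD, n = 3) in AAV-V, AAV-GP73 and AAV-V HFD. Its rise of 0.85 ± 0.28 (SE) in AAV-GP73 livers had an adjusted p of 0.0208 but was under the fold threshold, and the 0.66 ± 0.28 in AAV-V HFD did not pass (adjusted p = 0.0634). Lyz1, detected on no AAV-V array, was not called (adjusted p = 0.73 and 0.622). The adaptor Tyrobp and the Fc receptor gamma chain Fcer1g, which signal for activating receptors of myeloid and NK cells, were each detected on 1 AAV-V array, replicate 2, and differed from AAV-V by 0.25 to 0.69 with adjusted p from 0.107 to 0.666. On that array Fcer1g read 5.09, above every other array of the series.

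Of the class II genes, the beta chain H2-Eb1 was called in both comparisons. It read 3.77, 2.30 and 1.92 on AAV-V arrays, none detected, 3.81, 4.15 and 4.17 on AAV-GP73 arrays, and 3.58, 5.06 and 3.45 on AAV-V HFD arrays. The AAV-GP73 signals lay above those of AAV-V, at the closest by 3.81 against 3.77, and the AAV-V HFD arrays overlapped AAV-V. The lowest level detectable on AAV-V arrays was 3.77 to 3.94, so that 3.81 could not be told from AAV-V. The rises were at least 1.14-fold (adjusted p = 0.0329) and at least 1.13-fold (adjusted p = 0.0384). The other beta chain, H2-Ab1, was detected on 0, 3 and 2 arrays of AAV-V, AAV-GP73 and AAV-V HFD and was not called (adjusted p = 0.519 and 0.738). A second probe for H2-Ab1, which overlaps the first, gave adjusted p of 0.327 and 0.598.

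The class I members divided by probe. B2m read 6.65, 5.59 and 6.42 on AAV-V arrays, 7.55, 7.21 and 7.06 on AAV-GP73 arrays, and 6.11, 7.49 and 6.31 on AAV-V HFD arrays, all well above background. Its AAV-GP73 arrays lay wholly above AAV-V, and its AAV-V HFD arrays did not. B2m was higher in AAV-GP73 livers by 1.05 ± 0.40 (SE) on the log2 scale (adjusted p = 0.0379), while the difference of 0.42 ± 0.40 in AAV-V HFD did not pass (adjusted p = 0.39). H2-D1, a class I heavy chain, read 3.89, 1.77 and 3.47 without detection in AAV-V, 4.91, 4.70 and 4.32 in AAV-GP73, and 2.62, 5.16 and 3.74 in AAV-V HFD livers. It was higher in AAV-GP73 by at least 1.67-fold (adjusted p = 0.0423) and its AAV-V HFD arrays, spread over 2.62 to 5.16, overlapped those of AAV-V. The probe A_55_P2501876, named for H2-L, lies near the H2-D1 probe on the same strand of chr17 and was detected on all 9 arrays. Its difference in AAV-GP73 was -0.08 ± 0.37 (SE, adjusted p = 0.862 when every probe was tested by itself). Whether it reads H2-D1 was not tested. On the authors' log2 values neither passed, though the fitted value of H2-D1 was larger there (2.10, adjusted p = 0.0553) and that of B2m smaller (0.81, adjusted p = 0.126). B2m also missed the threshold with the median of detected probes (adjusted p = 0.0574) and with quantile normalization (adjusted p = 0.0658), and H2-D1 with the median (adjusted p = 0.0554).

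H2-K1 gave 1 answer on each probe. On A_55_P2049647, the brightest, it read 7.89, 7.16 and 7.63 in AAV-V, 7.75, 7.47 and 7.54 in AAV-GP73, and 6.91, 8.21 and 7.54 in AAV-V HFD livers, with differences of 0.02 ± 0.35 and -0.01 ± 0.35 (SE). On A_51_P198434 it read 7.48, 5.65 and 6.99, then 8.24, 8.30 and 7.66, then 6.42, 8.45 and 6.89. The second probe alone placed all AAV-GP73 arrays above all AAV-V arrays, with a difference of 1.36 ± 0.54 (SE) and an adjusted p of 0.047 when every probe was tested by itself. Its difference in AAV-V HFD was 0.55 ± 0.54 (adjusted p = 0.409).

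The gap between these probes within an array is free of any scaling between arrays. A_51_P198434 minus A_55_P2049647 was -0.42, -1.51 and -0.65 in AAV-V, 0.48, 0.83 and 0.12 in AAV-GP73, and -0.48, 0.24 and -0.65 in AAV-V HFD. All AAV-GP73 gaps were above all AAV-V gaps, by 1.34 on average, with a two-sided exact permutation p of 0.1, the smallest that 3 against 3 arrays allow. The probes that share the 29 bases, named for H2-T23 and H2-L, ran from 6.57 to 8.12 over the 9 arrays, where A_55_P2049647 ran from 6.91 to 8.21, and differed from AAV-V by -0.09 and -0.08 in AAV-GP73 and by -0.12 and -0.07 in AAV-V HFD. The class I call for H2-K1 thus depended on the probe, and the part of the shared run in this was not tested.

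**Figure D3:**
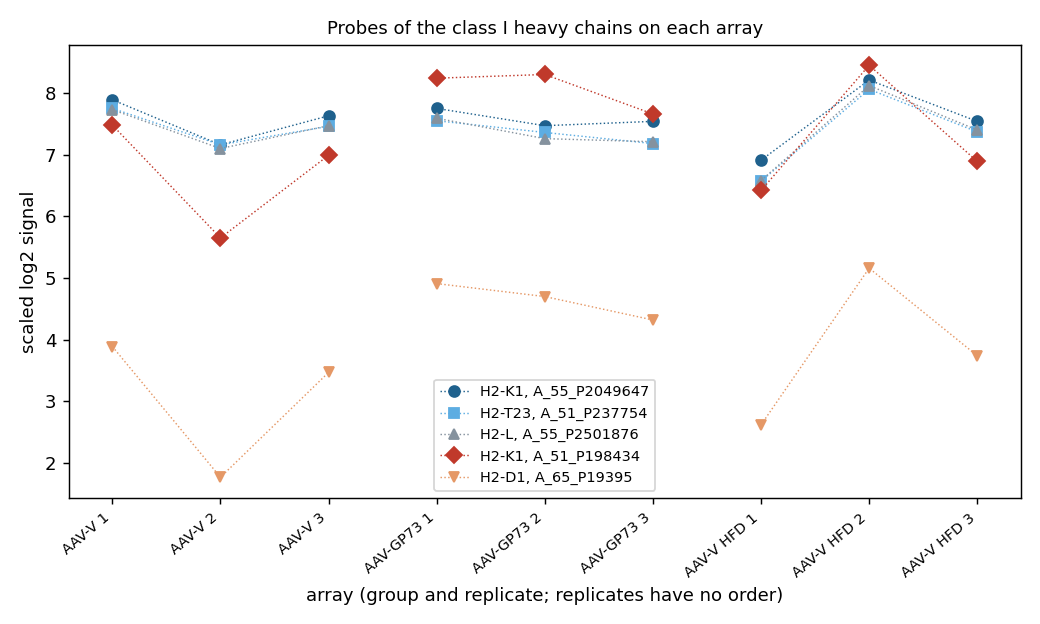
Scaled log2 signal (vertical) of 5 class I probes on the 9 arrays (horizontal), with dotted lines joining the arrays of 1 group. The 3 probes that share a run of 29 bases overlie each other at 6.57 to 8.21, whereas the other H2-K1 probe and the H2-D1 probe are lowest on an AAV-V array and higher on all AAV-GP73 arrays than on any AAV-V array.

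Lgals3 was the 1 lipid-associated macrophage marker that could be tested, and it was higher in AAV-V HFD livers. Galectin-3, its product, is a lectin of macrophages and injured tissue. Its brightest probe read 3.95, 4.58 and 3.84 in AAV-V, where replicate 2 alone was detected, 4.95, 4.42 and 4.15 in AAV-GP73, and 5.33, 5.84 and 4.91 in AAV-V HFD livers. The AAV-V HFD arrays lay wholly above AAV-V and the AAV-GP73 arrays did not. The rise in AAV-V HFD was 1.24 ± 0.34 (SE, adjusted p = 0.0101), and the 0.38 ± 0.34 in AAV-GP73 did not pass (adjusted p = 0.335). A second probe, with 10 spots, was detected on no AAV-V array and averaged 3.36 in AAV-V HFD, under the lowest level detectable in AAV-V, so that it set no bound. Its fitted difference, which rests on AAV-V signals below background, was 0.93 ± 0.32 (SE, adjusted p = 0.0304 when every probe was tested by itself). This was under the fold threshold and not called. Between AAV-GP73 and AAV-V HFD, Lgals3 differed by -0.85 ± 0.34 with an adjusted p of 0.232, so that a difference between the groups was not shown.

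**Figure D4:**
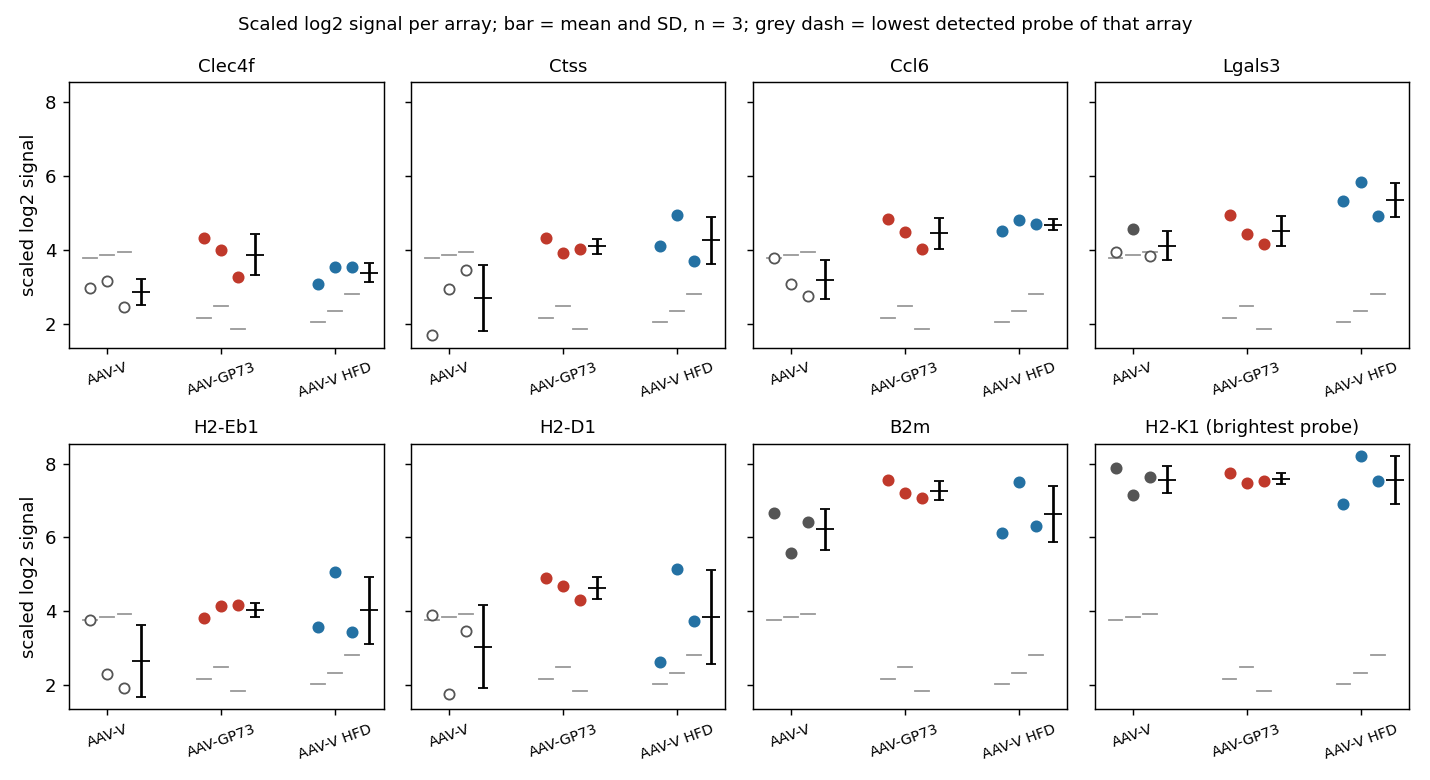
Scaled log2 signal (vertical) of 8 genes on the 3 arrays of each group (horizontal), filled where well above background and open where not, with the mean and SD as a bar and the lowest detected probe of each array as a grey dash. Clec4f, Ctss, Ccl6, H2-Eb1 and H2-D1 are open on all AAV-V arrays, and B2m and H2-K1 are filled on all 9 arrays.

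Directly compared, AAV-GP73 and AAV-V HFD livers differed in 0 of the 17 genes by limma, where 1.96% of all genes tested were higher and 0.555% lower in AAV-GP73. At an unadjusted p under 0.05 there were 2 of the 17, Csf1r and Lgals3, beside 916 of all 5763 genes tested. No excess over all genes is read from this count. These comparisons share their arrays with those against AAV-V and are no further evidence for them.

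The scaling between arrays decided how many of the 17 were called. With the 75th percentile of all non-control probes, 16 were higher in AAV-GP73 livers and 13 in AAV-V HFD livers, but 64.5% and 56.8% of all genes tested were then higher and 6.96% and 3.16% lower. The median log2 difference of all genes tested ran from -0.58 with normexp to 2.30 with spike-in scaling in AAV-GP73, and from -0.73 to 1.74 in AAV-V HFD. Relative to the median of all genes under the scaling used, the fitted difference exceeded it by 0.45 for B2m in AAV-GP73 and by 0.87 for Lgals3 in AAV-V HFD. That median includes genes below background in AAV-V. Over the genes detected on all 9 arrays, as B2m was, the median in AAV-GP73 was -0.19. Lgals3 was detected on 1 of 3 AAV-V arrays, so that its excess rests in part on signals below background. For the other called genes AAV-V gave only an upper limit, so that an excess over the median was not measured. Ctss, H2-Eb1 and Ccl6 were called in both comparisons under each of the 6 scalings of the processed or authors' log2 values, whereas under normexp with an offset of 50 their fitted values were negative, from -0.41 to -0.63, and not called. The processed signals of these 3 probes ran from 1.62 to 50.1, so that this offset was as large as or larger than nearly all of them. The part of the offset in the negative values was not tested.

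**Figure D5:**
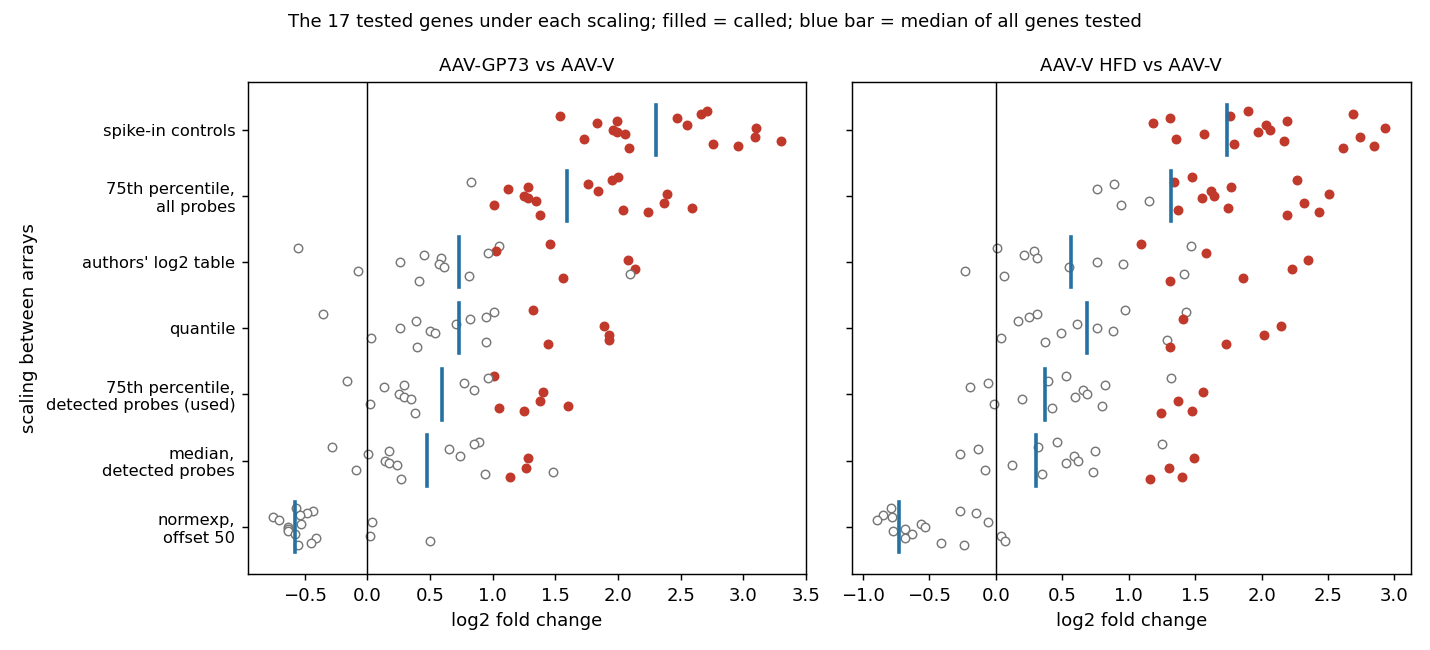
Fitted log2 fold change (horizontal) of the 17 tested genes under 7 ways of scaling or background correction (vertical), filled where called, with the median of all genes tested as a blue bar. The genes move with the bar, from around -0.58 to 2.30 in AAV-GP73 and from -0.73 to 1.74 in AAV-V HFD.

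The calls for AAV-GP73 also rested on few arrays. Without AAV-GP73 replicate 1, 2 or 3 in turn the count of 6 became 1, 2 or 3, and without AAV-V replicate 3 it became 2. Of all genes tested, 32.3%, 27.9%, 29.5% and 29.8% were higher in these fits, in the same order. Ccl6 was called in both comparisons in all 9 fits that each left out 1 array. Lgals3 was called in all 9 fits in AAV-V HFD. H2-D1 lost its call in 6 of 9 fits, with a fitted value of 0.95 (adjusted p = 0.187) without AAV-V replicate 2, and B2m in 5 of 9, with 0.72 (adjusted p = 0.146) without the same array. H2-Eb1 lost its call in 5 of 9 fits in AAV-GP73, with 1.00 (adjusted p = 0.14) without AAV-V replicate 3, and in 6 of 9 in AAV-V HFD, with 0.86 (adjusted p = 0.164) without replicate 2 of that group. Clec4f lost it in 3 of 9, without AAV-V replicate 3 (adjusted p = 0.0812) or AAV-GP73 replicate 1 (adjusted p = 0.0824) or 2 (adjusted p = 0.0674). Ctss lost it in AAV-GP73 without AAV-V replicate 1 (0.90, adjusted p = 0.0628) or AAV-GP73 replicate 1 (adjusted p = 0.0552), and in AAV-V HFD without replicate 2 of that group (adjusted p = 0.0546). In AAV-V HFD the count of 4 stayed between 3 and 5, beside 21.0% to 26.2% of all genes tested.

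Other genes of these pathways were counted from lists that were put together with earlier results of these data known. Apart from Ifi27, Grn, Mif, Il6ra and Tlr9, the genes named from them were chosen after their values were seen. Of 35 interferon-stimulated genes, 12 were tested and 7 of them were higher in AAV-GP73 livers and 5 in AAV-V HFD livers, with 0 lower in either, beside the 33.2% and 24.8% of all genes given above. Of the 12, 9 missed detection on at least 1 AAV-V array and 7 were detected on none, among them 6 of the 7 and all 5 called genes, so that these passed through the groups where they were brighter and the counts support no difference from the background. Iigp1, an interferon-induced GTPase, was detected on no AAV-V array and exceeded AAV-V by at least 6.08-fold in AAV-GP73 livers (adjusted p = 2.01e-05) and at least 4.15-fold in AAV-V HFD livers (adjusted p = 0.000172). Isg15, a ubiquitin-like modifier, Ifi35, Ifi47 and the RNA sensor Oas1a were also called in both. No AAV-V array detected these 4, and no bound above 1-fold could be set for any of them in AAV-GP73. Ifi27, detected on all 9 arrays, rose from 4.51 ± 0.28 to 5.99 ± 0.09 (SD, n = 3) in AAV-GP73 (adjusted p = 0.00504), and averaged 5.46 in AAV-V HFD. Irf9, a partner of the interferon-activated STAT factors, was the seventh gene called in AAV-GP73, also without detection in AAV-V or a bound. Cxcl9 and Cxcl10, which interferon-gamma induces, were the undetected members named above.

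Of 26 other class I pathway genes, 15 were tested, with 3 higher in AAV-GP73 (the proteasome activator Psme1, the lipid-presenting Cd1d1 and H2-Q2) and 2 in AAV-V HFD (the immunoproteasome subunits Psmb8 and Psmb10). Psmb8 was detected on no AAV-V array, and no bound above 1-fold could be set for it. Psmb10 exceeded AAV-V by 1.37 ± 0.30 (SE) in AAV-V HFD and by 0.77 ± 0.30 in AAV-GP73, under the fold threshold. Of 14 other class II pathway genes, 13 were detected on no array and 0 were tested. Of 44 other macrophage genes, 12 were tested, with 2 higher and 1 lower in AAV-GP73 livers. In AAV-V HFD livers 3 were higher and 1 lower. Of all genes tested, 33.2% were higher and 19.4% lower in AAV-GP73. In AAV-V HFD these shares were 24.8% and 18.2%. No difference from these shares is read from the counts of any of these lists. All of the macrophage genes called higher were detected on no AAV-V array. Nr1h3, the liver X receptor alpha, and the cathepsin Ctsz were higher in both, though hepatocytes also express Nr1h3. Grn, the gene of progranulin, was lower in both on its brightest probe, by 1.45 and 1.30 on the log2 scale, while its other detected probe averaged 6.21, 7.22 and 6.51 in AAV-V, AAV-GP73 and AAV-V HFD.

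Among 42 other chemokines and cytokines, 32 were detected on no array and 6 were tested. Cxcl12, a chemokine of stromal cells, was higher in both groups, by 1.56 ± 0.27 and 1.30 ± 0.27 (SE). Mif rose from 4.44 ± 0.22 to 5.83 ± 0.23 (SD, n = 3) in AAV-GP73 (adjusted p = 0.000996), and the platelet chemokine Pf4 was at least 1.88-fold higher there (adjusted p = 0.0107). Il18, an inflammasome cytokine, was the second gene called in AAV-V HFD, again with no AAV-V array detected and no bound above 1-fold. Of 22 receptors, 4 were tested, and the interleukin 6 receptor Il6ra was lower in AAV-GP73 (4.99 ± 0.43 to 3.26 ± 0.45, SD, n = 3, adjusted p = 0.00645) and in AAV-V HFD, where 2 of 3 arrays detected it (adjusted p = 0.0435). Of 33 genes of the NF-kB and toll-like receptor pathway, 12 were tested, with 3 higher and 2 lower in AAV-GP73 livers. In AAV-V HFD livers 1 was higher and 2 lower. These counts and those of the receptors also stand beside the shares of all genes given above, and no difference from them is read. Tlr9, the sensor of unmethylated DNA, fell from 4.92 ± 0.52 to 3.34 ± 0.33 in AAV-GP73 (adjusted p = 0.0018), and averaged 3.39 in AAV-V HFD.

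Markers of other cells moved with the groups in part. Alpha globin (Hba-a1) was detected on all 9 arrays and averaged 7.92, 11.77 and 8.59 in AAV-V, AAV-GP73 and AAV-V HFD, a rise of 3.85 ± 0.55 (SE) in AAV-GP73 (adjusted p = 0.000199). The summed level of 6 erythroid genes was 378 to 921, 3320 to 16600 and 616 to 1090 in these groups, and the part of blood in the leukocyte signals was not tested. Of 6 T cell markers, Cd3e, Cd3g and Lck were detected on no array and 1, Cd4, was tested, on a probe that disagreed with 2 others for Cd4 that no array detected. Of the 5 NK cell markers 4 were detected on no array, of 4 B cell markers 3, of 6 dendritic cell markers 5, and of 6 neutrophil markers 2, Ly6g and Camp. The summed levels of the neutrophil markers overlapped between groups, at 55.7 to 147, 25.8 to 149 and 36.3 to 89.4. Of the 3 neutrophil markers tested, only Elane, the neutrophil elastase gene, was called. It was detected on all 9 arrays and was lower in both groups. Its log2 differences were -1.61 ± 0.30 (SE, adjusted p = 0.000871) and -1.26 ± 0.30 (adjusted p = 0.00513). In the same order, S100a8 differed by -0.71 ± 0.79 and 0.22 ± 0.79 (SE), and S100a9 by 0.51 ± 1.01 and 0.25 ± 1.01. S100a8 was detected on 0 and S100a9 on 1 of the AAV-V arrays, so that their differences rest in part on signals below background. The summed T cell markers were 1700 to 3460, 362 to 784 and 798 to 1390, and the summed dendritic cell markers 358 to 710, 235 to 335 and 218 to 266, neither overlapping AAV-V. Each of these lists held 1 tested gene, for T cells the Cd4 probe that disagreed with the others. Of 7 liver endothelial markers Clec4g was tested, and it was called in AAV-GP73, while Lyve1, Cdh5 and Eng were detected on no array. Of 7 stellate cell markers 3 were detected on no array and 2 were tested. In AAV-GP73 livers 1 of the 2 was lower and 1 was not called, with a median log2 difference of -0.74. In AAV-V HFD livers 2 were lower, with a median of -1.72. Des, the gene of desmin, was lower in both groups, with log2 differences of -2.14 ± 0.52 (SE, adjusted p = 0.00405) and -2.31 ± 0.52 (adjusted p = 0.00376). The summed stellate markers were 89.5 to 229, 33.8 to 60.0 and 28.6 to 52.2, with no overlap with AAV-V, and their part in the results was not tested. After scaling, probes detected on no array had medians of 1.70 to 1.85 on AAV-V, -0.12 to 0.44 on AAV-GP73 and 0 to 0.78 on AAV-V HFD arrays. The part of such probes in the summed levels was not tested, and no change of a cell type is read from the sums. Of 5 cholangiocyte markers 2 were detected on no array. The summed levels of 6 hepatocyte markers were 15700 to 25300, 15800 to 21500 and 9930 to 15900.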

How the data were processed

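Total RNA of 9 mouse livers, 3 a group, was hybridised to one-colour Agilent arrays. Intensity values were deposited by the authors as scanner output, in which the processed signal is background-corrected, and the file headers give Feature Extraction 12.0.3.1 where the submitters' processing notes give 10.7. A table of log2 values was also deposited by the authors, with normalization not stated, and served as an alternative. It had column medians of 0.799 to 0.801.

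Flagged spots were left out, spots of 1 probe averaged, and arrays shifted to an equal 75th percentile of the probes well above background on all 9 arrays. The brightest probe stood for a gene. A gene entered the fit if any group had it detected on each of its arrays, and the 3 groups were fitted with limma 3.58.1 (lmFit and eBayes, in R 4.3.3 with data.table version 1.17.8), and called at 2-fold and a Benjamini-Hochberg adjusted p under 0.05 over all 5763 genes. Where a group lay wholly below background, only a least fold was given, from the lowest detected signal of each of its arrays or the probe's own signal if higher. The fit was tested on simulated data.

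The genes and lists were chosen with earlier results of these data known. Values per array were given for called genes and for genes whose probes disagreed, and from each further list the called gene that rose most and the one that fell most were named, among those detected in both groups. The number of arrays limits the precision.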

Additional observations from a re-analysis of the deposited data

How the results depend on the processing

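The count of genes higher in AAV-GP73 than in AAV-V, 6, became 16 with the 75th percentile of all probes and 17 with spike-in scaling. It became 3 with the median of detected probes and 0 with normexp. Of all genes tested, 64.5%, 76.4%, 29.2% and 2.39% were higher under these settings. When only genes detected on all 9 arrays were tested, 4 of the 35 among them, the count was 1, beside 16.1% of all genes. By the methods' t-test the count was 2 before and 0 after adjustment, beside 29.2% and 25.0% of all genes. The count of 4 in AAV-V HFD became 13 with the 75th percentile of all probes, 17 with spike-in scaling and 0 with normexp. Of all genes tested, 56.8%, 66.3% and 1.25% were then higher. Over genes detected on all 9 arrays the count was 0, beside 11.7% of all genes. By the methods' t-test it was 2 and 1, beside 20.5% and 14.0%. Without a filter on dim probes, 7 genes were lower in each comparison with AAV-V, against 0, where 74.5% and 71.3% of all genes were lower. With normexp the fitted values reversed in AAV-GP73 for Clec4f (-0.57), Ctss (-0.53), H2-Eb1 (-0.58), H2-D1 (-0.41) and Ccl6 (-0.45), and in AAV-V HFD for Ctss (-0.56), H2-Eb1 (-0.63), Ccl6 (-0.41) and Lgals3 (-0.24). The cause was not tested. Leaving out 1 array at a time gave 1 to 6 higher genes in AAV-GP73, 3 to 5 in AAV-V HFD and 0 to 0 in every other count. Of all genes tested, 27.9% to 34.0% were higher in AAV-GP73 in these fits and 21.0% to 26.2% in AAV-V HFD. Equal replicate numbers did not pair the arrays, since the correlations of their deviations ran from -0.12 to 0.17, with 2 of 9 over 0.1. With the replicate number as a block, the counts were 4 in AAV-GP73, 5 in AAV-V HFD and 0 between them. Of all genes tested, 33.2% and 25.0% were then higher in AAV-GP73 and AAV-V HFD. Most of the 35 genes were dim, and the lowest signal that could be detected after scaling was higher on AAV-V arrays than on the others.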

Other observations

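In AAV-V HFD the same array was highest for each antigen presentation gene. Replicate 2 of AAV-V HFD was the highest array of its group for 5 of the 5 tested genes of the class I and class II pathways, and for 31.8% of all genes tested. In AAV-GP73 the 3 arrays were highest for 3, 0 and 2 of the 5 and lowest for 1, 2 and 2. The median SD of these 5 genes was 0.79 for AAV-V, 0.25 for AAV-GP73 and 0.85 for the HFD group, beside 0.42, 0.27 and 0.34 over all genes tested. In AAV-V, replicate 1 held the highest signal for 5 of the 5, and for 33.0% of all genes tested. There B2m and H2-K1 were detected on every array, but H2-Ab1, H2-Eb1 and H2-D1 were below background on every array, so that their order could not be read. These patterns were seen in the data and were not tested, and the genes of a group share their arrays.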
